A study of Mus musculus with 9 samples.

Results

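The alpha-defensins of the mouse small intestine were examined in RNA-Seq of cells sorted by lineage. The 10 genes described are Defa24, Defa3, Defa5, Defa17, Defa20, Defa21, Defa22, Defa23, Defa26 and Defa30, chosen by name as the rows with these symbols in both deposited tables, 10 of 35013 gene symbols. All 9 libraries came from Neurog3Cre-FoxO1 f/f; Rosa26tdtomato (NFKO) mice aged 4 to 6 weeks, so that every group carried the same genotype and no library came from mice with intact FoxO1. Cre was expressed from Neurog3, a gene of secretory and endocrine progenitors, so that FoxO1 deletion and the Tomato label were limited to that lineage. Small intestinal epithelial cells, stained for Epcam and for the surface antigen CD24, were separated into labelled cells without CD24 (CD24negTomato+), labelled cells with CD24 (CD24+Tomato+) and unlabelled cells (Tomatoneg), with 3 replicates of each. Tomatoneg cells are a mixture of the remaining epithelial cells of NFKO mice, and neither the labels nor the methods give the number of mice behind a library. Whether libraries sharing a replicate number had a common animal or sort is not stated either. Pairing by that number, used below, therefore rests on the values alone.

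Alpha-defensins are small cationic peptides that Paneth cells, which sit at the base of the crypts, store in granules and release into the crypt lumen, where they kill bacteria. They are made as precursors, and in the mouse the protease matrilysin, encoded by Mmp7, cuts them into active peptides. The mouse genome holds many near-identical copies of these genes in a cluster, and Wnt signals acting through TCF factors are known to sustain their transcription in Paneth cells.

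The 10 genes lie on the plus strand of chromosome 8 of the GRCm38 build, in the order Defa21, Defa23, Defa30, Defa22, Defa3, Defa5, Defa20, Defa26, Defa17 and Defa24. Defa21, at one end, spans chr8:21025545-21026516, and Defa24, at the other, spans chr8:21734494-21735471. Each has 2 exons in GENCODE M21, a transcript of 372 to 425 bases and a coding sequence of 282 bases, except Defa20 with 288. Identity between the coding sequences of any pair ranged from 80.7% (Defa21 and Defa24) to 100% (Defa3 and Defa17, which have the same coding sequence). Because the values were estimated by kallisto, which assigns reads by shared short sequence words, the share of 31-base words that occur in no other gene of GENCODE M21 was counted for each transcript. This share was 42.9% in Defa24, 31.9% in Defa26, 29.6% in Defa30, 16.0% in Defa21, 8.23% in Defa22, 7.37% in Defa3 and 6.81% in Defa17. Defa5 had 1 such word of 346 (0.289%), and Defa23 and Defa20 had none. The level of Defa23, Defa20 and Defa5 therefore rests on how shared reads were divided among paralogs, while Defa24 has the largest share of sequence words of its own. The transcriptome and word length the authors used are not given in the sources used here.

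**Figure D1:**
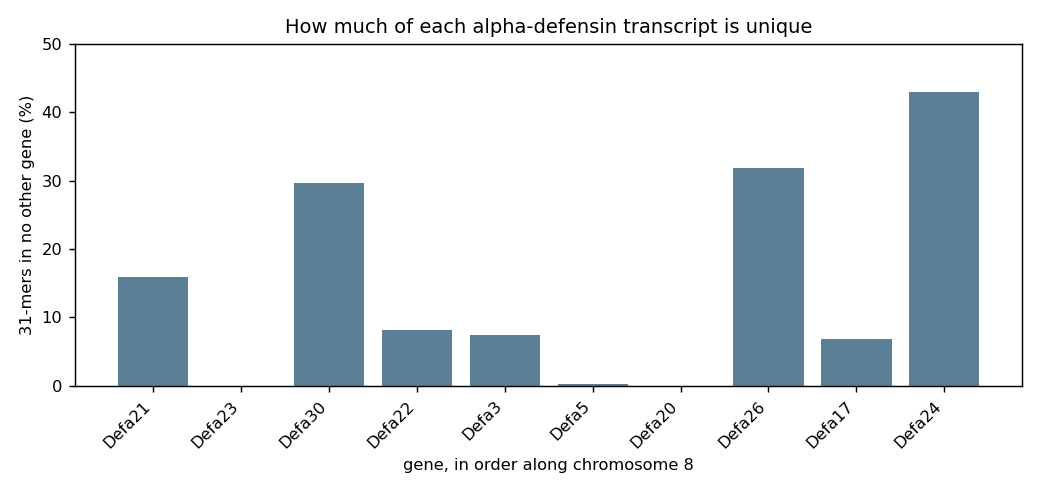
Percent of the 31-base words of each alpha-defensin transcript that occur in no other GENCODE M21 gene (vertical axis), for the 10 genes in order along chromosome 8 (horizontal axis). Defa24 has the tallest bar at 42.9%, and Defa23 and Defa20 are at 0.

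Coding sequences are shown for the gene that stood apart from the others in CD24negTomato+ cells (Defa24), its closest relative (Defa30), the least abundant gene (Defa26), a gene with no word of its own (Defa23) and the sequence that Defa3 and Defa17 share. They are the plus strand of GRCm38 from GENCODE M21, 5′ to 3′, and capitals mark bases within a 31-base word found in no other gene.
Defa24: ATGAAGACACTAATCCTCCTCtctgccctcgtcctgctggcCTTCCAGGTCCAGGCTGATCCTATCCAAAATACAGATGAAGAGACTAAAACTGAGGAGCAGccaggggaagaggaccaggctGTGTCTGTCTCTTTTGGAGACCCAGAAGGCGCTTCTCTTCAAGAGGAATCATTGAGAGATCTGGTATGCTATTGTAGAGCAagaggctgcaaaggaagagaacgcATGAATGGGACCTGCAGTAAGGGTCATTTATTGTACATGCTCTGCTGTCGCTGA
Defa30: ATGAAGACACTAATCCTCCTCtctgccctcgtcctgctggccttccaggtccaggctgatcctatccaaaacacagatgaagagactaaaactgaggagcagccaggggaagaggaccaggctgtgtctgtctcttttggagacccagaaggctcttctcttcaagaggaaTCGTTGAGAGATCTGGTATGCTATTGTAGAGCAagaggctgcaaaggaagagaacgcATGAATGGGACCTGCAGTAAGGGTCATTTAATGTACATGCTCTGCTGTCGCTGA
Defa26: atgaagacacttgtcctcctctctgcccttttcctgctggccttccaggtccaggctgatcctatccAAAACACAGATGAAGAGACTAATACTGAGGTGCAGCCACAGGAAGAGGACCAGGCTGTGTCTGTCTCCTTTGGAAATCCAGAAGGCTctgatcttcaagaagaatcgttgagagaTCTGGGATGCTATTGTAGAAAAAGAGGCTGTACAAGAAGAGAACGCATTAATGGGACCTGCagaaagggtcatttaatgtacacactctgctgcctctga
Defa23: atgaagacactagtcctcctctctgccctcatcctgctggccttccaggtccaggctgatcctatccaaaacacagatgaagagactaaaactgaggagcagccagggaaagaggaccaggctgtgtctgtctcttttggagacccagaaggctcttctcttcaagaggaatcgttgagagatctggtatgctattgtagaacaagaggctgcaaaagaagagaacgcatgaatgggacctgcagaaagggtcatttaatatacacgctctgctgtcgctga
Defa3 and Defa17: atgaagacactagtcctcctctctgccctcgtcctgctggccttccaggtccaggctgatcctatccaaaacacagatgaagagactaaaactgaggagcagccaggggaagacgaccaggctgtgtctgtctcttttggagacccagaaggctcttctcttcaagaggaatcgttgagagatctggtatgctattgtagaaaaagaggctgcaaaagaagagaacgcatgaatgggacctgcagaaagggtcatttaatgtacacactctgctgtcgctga
Defa24 and Defa30 were 98.6% identical and differed at 4 aligned positions. Capitals at either end can come from words that reach into the untranslated regions, which are not shown. Defa24 was 95.7% identical to Defa23 and to Defa3, and 89.4% identical to Defa26.

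Promoter windows in RefSeq (GRCm38.p6, 250 bases before to 50 after the start) were found for 5 of the 10 genes, Defa20, Defa21, Defa22, Defa23 and Defa30. The hexamer CTTTGA, the core of a TCF/LEF motif, was present on at least 1 strand in 5 of 5, against 5257 (16.0%) of all 32851 windows, and the TATA box TATAAA in 5 of 5, against 13.6%. Both strands were searched, and the letters of these hexamers did not overlap in the windows printed. The windows of Defa21 and Defa22 were identical. Those of Defa20, Defa23 and Defa30 were 97.7%, 81.9% and 66.7% identical to them, so the 5 windows are not independent. Of 11 windows of other alpha-defensin symbols, 8 held CTTTGA and 10 held TATAAA. The 250 bases before the start are shown for Defa21 (chr8:21025295-21025544) and Defa23 (chr8:21054790-21055039), both on the plus strand, with both hexamers in capitals, the first as its reverse complement TCAAAG.
Defa21 and Defa22: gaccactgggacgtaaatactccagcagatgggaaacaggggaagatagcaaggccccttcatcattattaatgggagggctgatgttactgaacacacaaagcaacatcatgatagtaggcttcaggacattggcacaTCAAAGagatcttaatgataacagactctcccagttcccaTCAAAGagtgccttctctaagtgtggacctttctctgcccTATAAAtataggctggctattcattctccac
Defa23: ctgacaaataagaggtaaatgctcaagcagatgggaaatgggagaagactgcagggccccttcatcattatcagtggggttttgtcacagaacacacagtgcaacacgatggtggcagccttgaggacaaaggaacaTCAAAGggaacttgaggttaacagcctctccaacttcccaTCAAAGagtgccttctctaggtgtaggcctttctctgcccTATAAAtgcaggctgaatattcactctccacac
In Defa21 the TCF/LEF hexamer began 111 and 71 bases before the start and the TATA box 31 bases before it, and in Defa23 these distances were 113, 73 and 33 bases. These matches are letters in a window, and binding was not measured.

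Before the comparisons, the deleted gene and the sort antigen were read in each library. Foxo1 was at 467, 274 and 371 normalized counts in CD24negTomato+ replicates 1, 2 and 3 against 695, 518 and 424 in Tomatoneg, groups that overlap (limma adjusted P = 0.427), and at 319, 193 and 201 in CD24+Tomato+ against 748, 529 and 444, groups that do not overlap (adjusted P = 0.0579, and 0.0219 with a block for the replicate number). The values are per gene, so whether the reads lay in the deleted part of Foxo1 was not tested. Cd24a, which encodes the sort antigen, was at 25857 to 30949 in CD24+Tomato+ and at 993 to 2054 in CD24negTomato+. Tomatoneg lay between them. The log2 fold change from Tomatoneg was 2.78 in CD24+Tomato+ (limma adjusted P = 0.00300). In CD24negTomato+ it was -1.37 (adjusted P = 0.115, and 0.0133 with the block). Tomatoneg replicate 1 stood apart, with 13025 genes above 0 against 15644 to 18530 in the other libraries, and its log2 values correlated with those of Tomatoneg replicates 2 and 3 at r = 0.850 and 0.818, against 0.924 between the latter. The Tomatoneg libraries appear in both tables and serve both comparisons, so these are not independent.

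CD24+Tomato+ cells held the highest alpha-defensin level. The 10 genes together summed to 546673, 3137275 and 2372701 normalized counts in replicates 1, 2 and 3, or 2.42%, 11.4% and 8.23% of all normalized counts in the library. In the same table the Tomatoneg libraries summed to 47076, 185367 and 193148, or 0.171%, 0.773% and 0.702%. In the other table CD24negTomato+ cells summed to 17186, 46243 and 51373, or 0.0608%, 0.168% and 0.169%, beside 43287, 179444 and 182340 in Tomatoneg. Replicate 1 was the lowest library of every population. The log2 difference of the summed level from Tomatoneg was 3.75 in CD24+Tomato+, which is a 13.4-fold ratio, and -1.71 in CD24negTomato+, which is 3.26-fold lower than Tomatoneg. Between same-numbered libraries the difference was 3.54, 4.08 and 3.62 in CD24+Tomato+ (SD 0.29, n = 3) and -1.33, -1.96 and -1.83 in CD24negTomato+ (SD 0.33, n = 3), while the SD of the log2 sum among libraries of a population was 0.87 to 1.35. The spread between replicates was therefore largely shared by libraries with the same number. In sorted bulk RNA, fewer Paneth cells and less alpha-defensin RNA per cell cannot be told apart.

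**Figure D2:**
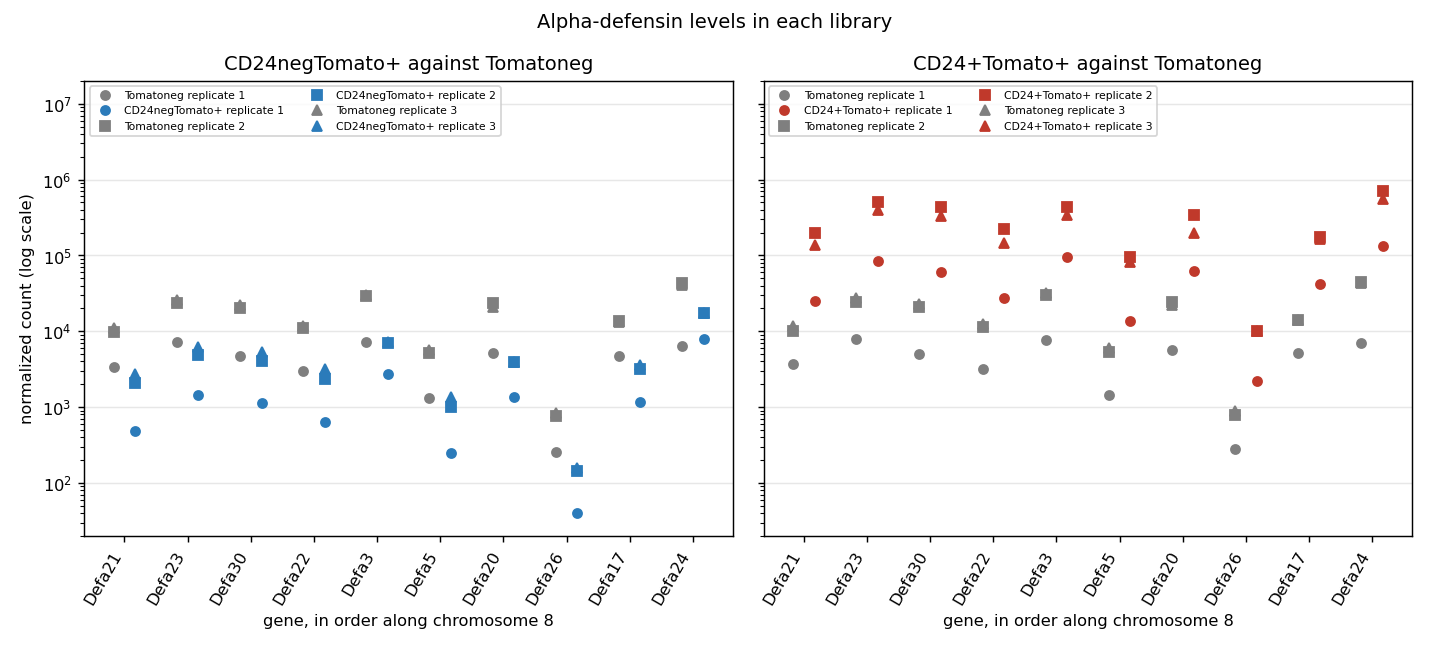
Normalized counts (vertical log axis) of the 10 alpha-defensins in order along chromosome 8, in the CD24negTomato+ table (left) and the CD24+Tomato+ table (right). Each point is 1 library, grey for Tomatoneg and coloured for Tomato+, and replicate 1 (circles) is the lowest in every group. The red points lie above the grey ones for all 10 genes, and the blue points mostly below.

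The first comparison asked how alpha-defensin RNA in CD24+Tomato+ cells, the labelled cells with CD24, differs from that in unlabelled epithelium. The paper used CD24 staining to tell enteroendocrine, goblet and Paneth cells apart, and reports Paneth cells among the cells with CD24. The sort thus selected on an antigen tied to Paneth cells, though not to them alone, and its part in the differences below was not tested. All 10 genes rose, with log2 fold changes from 3.40 (Defa26) to 3.98 (Defa24) and a median of 3.64, against a median of 0.16 over all genes tested. Their limma adjusted P ranged from 0.0191 to 0.0339, and 8.02% of the 13874 genes tested passed in this direction. With the replicate number as a block all 10 also passed, against 10.8% of genes. No gene had overlapping groups, against 21.6% of genes whose CD24+Tomato+ libraries were all above Tomatoneg. Each was higher in all 3 same-numbered pairs, against 34.3% of genes. The count of 10 depended on single libraries of the CD24+Tomato+ group: without replicate 2 or without replicate 3 no member passed, and without Tomatoneg replicate 2 only 4 did. Without Tomatoneg replicate 1, the library that stood apart, 8 of the 10 passed. Calls over all genes changed as well. In this direction 127 genes passed without CD24+Tomato+ replicate 2 and 231 without replicate 3, against 1113 with all libraries. The number was 1076 without Tomatoneg replicate 2 and 1620 without Tomatoneg replicate 1.

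Defa24, which had the highest level per kilobase in each CD24+Tomato+ library, was at 132056, 710294 and 558475 normalized counts against 6974, 44430 and 43419 in Tomatoneg. The lowest CD24+Tomato+ library lay above the highest unlabelled one, and the log2 fold change was 3.98 (SE 0.94, adjusted P = 0.0339). Defa30, its closest relative by coding sequence, was at 61175, 439054 and 333544 against 5073, 20661 and 23200, a log2 fold change of 3.95 (SE 0.89, adjusted P = 0.0291). Defa24 and Defa30 had the largest fitted fold changes of the 10, and their difference was smaller than either SE.

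Defa23 was at 84705, 513353 and 399150 against 7827, 24054 and 27391 (log2 fold change 3.91, SE 0.80, adjusted P = 0.0227). Defa3 was at 96111, 431097 and 340468 against 7775, 30023 and 31713 (3.63, SE 0.77, adjusted P = 0.0245). Defa17, with the coding sequence of Defa3, was at 42317, 176771 and 167154 against 5197, 14145 and 13996 (3.42, SE 0.66, adjusted P = 0.0191). In all 3 genes replicate 2 was the highest CD24+Tomato+ library and replicate 1 the lowest. Defa5 was at 13737, 94737 and 82098 against 1435, 5317 and 5972 (3.73, SE 0.84, adjusted P = 0.0294), and Defa20 at 62312, 336819 and 198493 against 5579, 24387 and 22411 (3.47, SE 0.79, adjusted P = 0.0302). Defa21 and Defa22, whose promoter windows are the same, were 99.3% identical in coding sequence and had log2 fold changes of 3.53 and 3.64. Defa26 had the lowest level of the 10, at 2227, 10161 and 10165 against 282, 782 and 875, and the smallest fold change (3.40, SE 0.68, adjusted P = 0.0208).

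The second comparison asked the same of CD24negTomato+ cells, the labelled cells without CD24. All 10 genes had lower fitted levels than in Tomatoneg, with log2 fold changes from -2.48 (Defa26) to -0.74 (Defa24) and a median of -2.17, against a median of 0.08 over all genes tested. With limma 0 of the 10 passed (adjusted P = 0.121 to 0.642), and 0.32% of the 13420 genes tested passed in this direction. At an unadjusted P under 0.05 in the same limma fit, 9 of the 10 were lower, all but Defa24, as were 915 of the 13420 genes tested. With the replicate number as a block, 9 of the 10 passed (adjusted P = 0.00166 to 0.0130), against 2.96% of genes. Defa24 did not (adjusted P = 0.199). The groups did not overlap for 5 of the 10 (Defa17, Defa20, Defa21, Defa23 and Defa26), against 10.6% of genes, and 9 of the 10 were lower in all 3 same-numbered pairs, against 23.6%. Without Tomatoneg replicate 1, 9 of the 10 passed without any block as well. In that fit 442 of 13431 genes passed in this direction, against 43 of 13420 with all libraries.

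**Figure D3:**
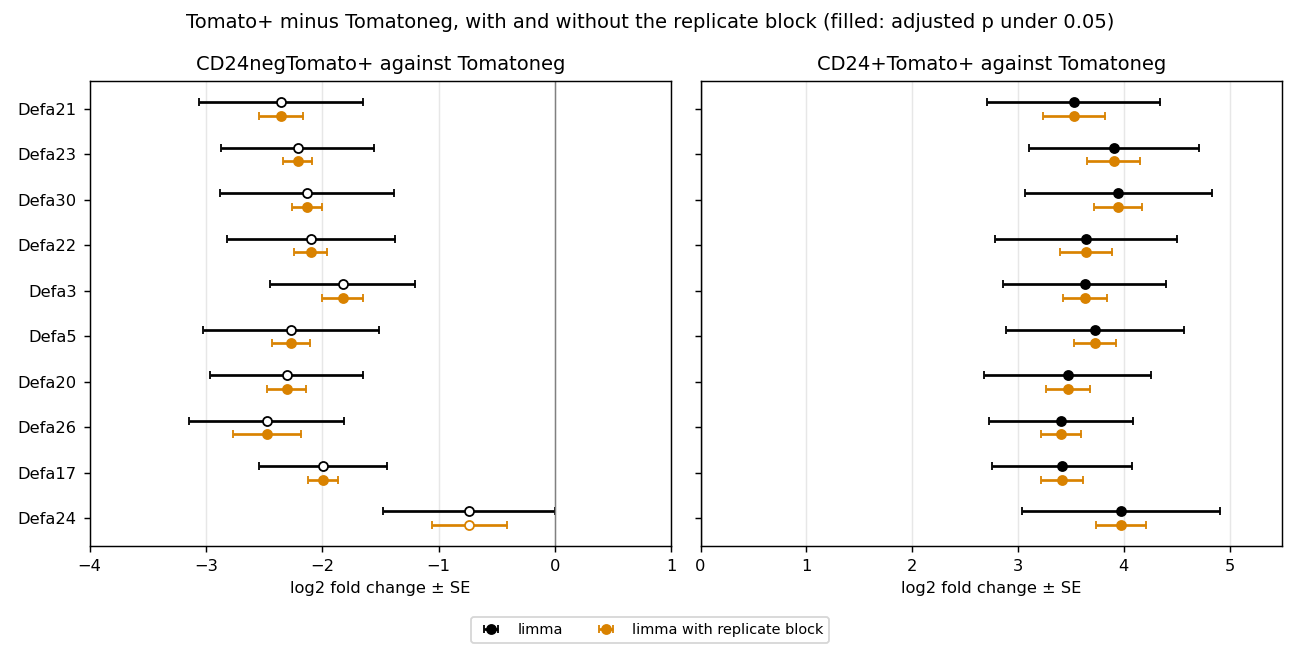
Log2 fold change from Tomatoneg with its SE (horizontal axis) for the 10 alpha-defensins (vertical axis), in CD24negTomato+ (left) and CD24+Tomato+ (right), from limma without (black) and with (orange) the replicate number as a block. Filled points have an adjusted P under 0.05, and in CD24negTomato+ only the fit with the block has filled points, 9 of them, and Defa24 is unfilled.

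Defa20 was at 1367, 3913 and 3956 normalized counts in CD24negTomato+ replicates 1, 2 and 3 against 5133, 23621 and 21169 in Tomatoneg. Its groups did not overlap, and the log2 fold change was -2.31 (SE 0.66, adjusted P = 0.134, and 0.00314 with the block). Defa23 was at 1448, 4898 and 6129 against 7198, 23285 and 25859 (-2.21, SE 0.66, adjusted P = 0.149, and 0.00166 with the block). Defa17 was at 1167, 3205 and 3630 against 4776, 13684 and 13205 (-2.00, SE 0.55, adjusted P = 0.127, and 0.00203 with the block). In each of these genes the highest labelled library lay below the lowest unlabelled one, and that lowest one was Tomatoneg replicate 1.

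Defa21 was at 487, 2075 and 2737 against 3413, 9788 and 11143 (-2.36, SE 0.70, adjusted P = 0.149, and 0.00388 with the block). Defa26, again the gene of lowest level, was at 40.6, 144 and 155 against 258, 756 and 825 (-2.48, SE 0.67, adjusted P = 0.121, and 0.0130 with the block). Defa3 was at 2767, 7004 and 7220 against 7149, 29063 and 29937 (-1.82, SE 0.62, adjusted P = 0.197, and 0.00749 with the block). Its groups overlapped by a single library, since CD24negTomato+ replicate 3 lay just above Tomatoneg replicate 1. The same overlap with Tomatoneg replicate 1 was seen for Defa5, Defa22 and Defa30, whose log2 fold changes were -2.27, -2.10 and -2.13.

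Defa24 differed from the other members in this comparison, an observation made after the values were seen. It was at 7908, 17556 and 17646 against 6415, 43024 and 41002, so that in replicate 1 the labelled cells held more than the unlabelled ones. The log2 differences of the same-numbered pairs were 0.30, -1.29 and -1.22, and the fitted log2 fold change was -0.74 (SE 0.74, adjusted P = 0.642, and 0.199 with the block). Without Tomatoneg replicate 1 it was -1.64 (adjusted P = 0.0504). Defa30, which is 98.6% identical to it in coding sequence, was at 1116, 4080 and 5302 against 4662, 19989 and 21889, with pair differences that were all below 0.

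As a share of the summed level of the 10 genes, Defa24 made up 46.0%, 38.0% and 34.3% in CD24negTomato+ replicates 1, 2 and 3 (39.4% ± 5.97, SD, n = 3). It made up 14.8%, 24.0% and 22.5% in Tomatoneg (20.4% ± 4.91) and 24.2%, 22.6% and 23.5% in CD24+Tomato+ (23.4% ± 0.762). All 3 CD24negTomato+ libraries lay above all 6 others. The ratio of Defa24 to Defa3 was 2.86, 2.51 and 2.44 in CD24negTomato+, 0.897, 1.48 and 1.37 in Tomatoneg and 1.37, 1.65 and 1.64 in CD24+Tomato+, and the ratio of Defa24 to Lyz1, which encodes the Paneth cell lysozyme, was 2.34, 1.68 and 1.69, then 0.512, 0.871 and 0.882, then 0.767, 1.10 and 1.08. The share was chosen after its values were seen and was not tested. Since the shares of a library add up to the whole, the other shares are bound to it. Defa23 made up 8.42% to 11.9% of the sum in CD24negTomato+, below the 13.0% to 16.6% in Tomatoneg and the 15.5% to 16.8% in CD24+Tomato+. Defa30 made up 6.50% to 10.3%, below 10.8% to 12.0% and 11.2% to 14.1%. Defa26 made up 0.236% to 0.312%, below 0.421% to 0.597% and 0.324% to 0.428%. The shares of the other 6 genes overlapped with those in CD24+Tomato+. Against Tomatoneg they lay below without overlap except that of Defa22, some of them narrowly, as for Defa3 at 14.1% to 16.1% against 16.2% to 16.5% (13.7% to 17.6% in CD24+Tomato+).

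**Figure D4:**
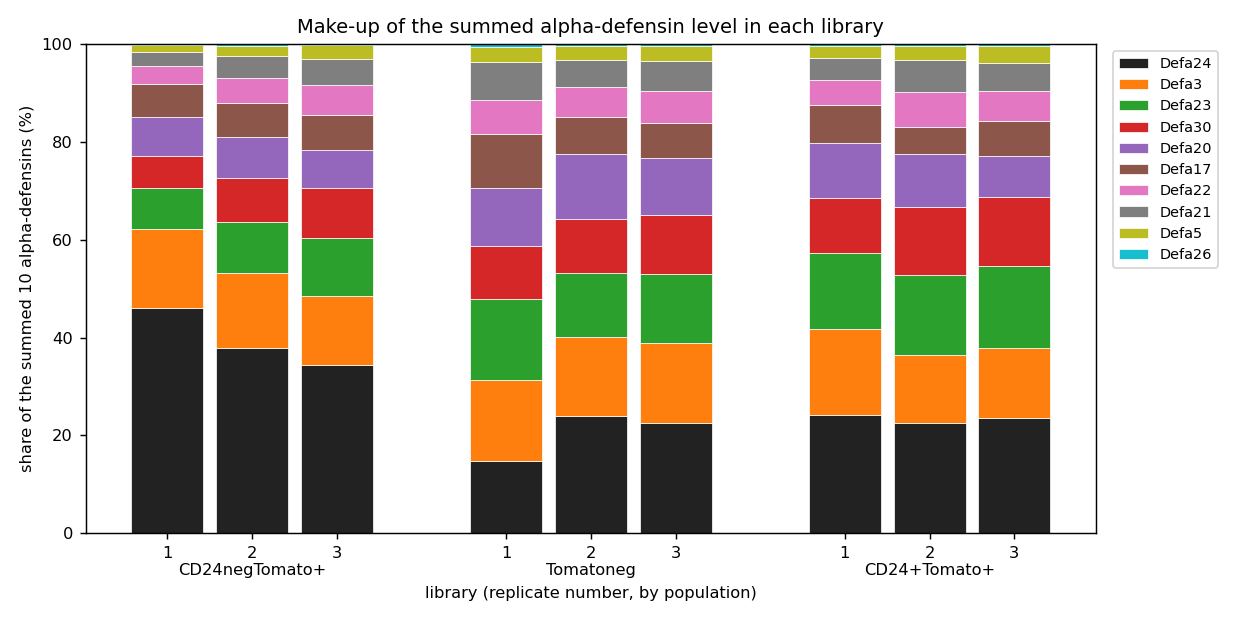
Share of the summed normalized counts of the 10 alpha-defensins taken by each gene (vertical axis, %), in 9 libraries (horizontal axis), with Tomatoneg from the CD24negTomato+ table. The black segment, Defa24, spans 34.3% to 46.0% in CD24negTomato+ and 14.8% to 24.2% in the other libraries.

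Levels were compared between the genes as normalized counts per kilobase of GENCODE M21 transcript. Defa24 ranked highest in every library except Tomatoneg replicate 1, where Defa23, Defa3 and Defa24 stood at 17513, 17437 and 15310 per kilobase in the CD24negTomato+ table. Defa26 ranked last and Defa5 next to last in every library. In CD24+Tomato+ libraries Defa24 was at 315169, 1695211 and 1332876 per kilobase and Defa26 at 5987, 27315 and 27324. The ranks between them were not stable: Defa3 was above Defa23 in CD24+Tomato+ replicate 1 and below it in replicates 2 and 3, and Defa21 and Defa22 exchanged places in Tomatoneg replicate 1. Neighbouring genes in this order overlapped over the libraries of a population, except that Defa26 lay below Defa5 without overlap in each population and Defa24 lay above Defa3 without overlap in CD24negTomato+. The spread itself was 4.18-fold to 8.22-fold from the lowest to the highest CD24+Tomato+ library of a gene.

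The tables hold 45 alpha-defensin symbols, of which 17 are named as pseudogenes and 10 were listed at 0 in all libraries. The 10 genes took 60.3% to 74.0% of the summed family level, and the whole family took 3.94%, 18.8% and 13.2% of the normalized counts in CD24+Tomato+ replicates 1, 2 and 3. Of the 35 other symbols, 21 passed the filter in the CD24+Tomato+ table and 12 of these rose (19 with the block), against 8.02% of genes (10.8% with the block). In CD24negTomato+ the filter left 17, of which 0 passed with limma (7 were lower at an unadjusted P under 0.05) and 12 were lower with the block, against 2.96% of genes. At that unadjusted P, 915 of all 13420 genes tested were lower. The 3 other symbols of highest mean were Defa36, Defa2 and Defa43. Defa36 was at 65683, 444788 and 352747 in CD24+Tomato+ against 5878, 27550 and 27747 (log2 fold change 3.72, adjusted P = 0.0366). In CD24negTomato+ it was at 1174, 5175 and 6664 against 5407, 26679 and 26204 (-2.18, adjusted P = 0.229, and 0.00190 with the block). Defa2 and Defa43 had log2 fold changes of 3.67 and 4.05 in CD24+Tomato+ and of -2.47 and -1.87 in CD24negTomato+.

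Most genes listed with the Paneth granule rose with the alpha-defensins in CD24+Tomato+ cells. Of 12 listed genes for granule contents and processing, 11 were tested and 10 rose (11 with the block), with a median log2 fold change of 3.31. Of all genes tested, 8.02% rose in this comparison (10.8% with the block). Mmp7, whose product processes the precursors, was at 14623, 40275 and 44888 against 1525, 5131 and 5690 (3.07, adjusted P = 0.0211). Lyz1 was at 172202, 644306 and 515378 against 13501, 50616 and 48830 (3.58, adjusted P = 0.0239). The largest fold changes of the list were those of Clps, which encodes colipase (3.69), and Ang4, which encodes an antimicrobial ribonuclease (3.64), with Itln1, which encodes an intelectin, at 3.36. In CD24negTomato+ cells 1 of 11 was higher, Nupr1, a stress-response gene, at 976, 1629 and 1489 against 292, 339 and 319 (2.07, adjusted P = 0.0195), where 0.999% of genes tested passed in this direction, and 0 were lower. At an unadjusted P under 0.05, 3 of the 11 were higher and 5 lower, where 1377 and 915 of all 13420 genes tested were. The 3 were Nupr1, Mptx1, which encodes a mucosal pentraxin (2047, 3637 and 3280 against 231, 1247 and 1714, log2 fold change 1.87, adjusted P = 0.231, and 0.0513 with the block), and Clps (2127, 1787 and 1133 against 539, 695 and 1035, 1.16, adjusted P = 0.148, and 0.102 with the block). With the block 4 were lower, Lyz1, Pla2g2a, Itln1 and Pnliprp2, where 2.96% of genes tested passed in this direction. Lyz1 was at 3373, 10430 and 10432 against 12517, 49404 and 46480 (-2.10, adjusted P = 0.157, and 0.00199 with the block). Mmp7 stood at 1059, 3708 and 4525 against 1413, 5005 and 5413 (-0.37, adjusted P = 0.813, and 0.139 with the block). The summed alpha-defensins per unit of Mmp7 were 16.2, 12.5 and 11.4 in CD24negTomato+, 30.6, 35.9 and 33.7 in Tomatoneg and 37.4, 77.9 and 52.9 in CD24+Tomato+, so that the 3 populations did not overlap in this ratio. Per unit of Lyz1 the order of the first 2 populations was the opposite, with 5.09, 4.43 and 4.92 in CD24negTomato+ and 3.46, 3.63 and 3.92 in Tomatoneg, against 3.17, 4.87 and 4.60 in CD24+Tomato+. Per unit of Itln1 they overlapped, at 4.67, 6.10 and 6.61 in CD24negTomato+ and 4.97, 7.90 and 5.94 in Tomatoneg.

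**Figure D5:**
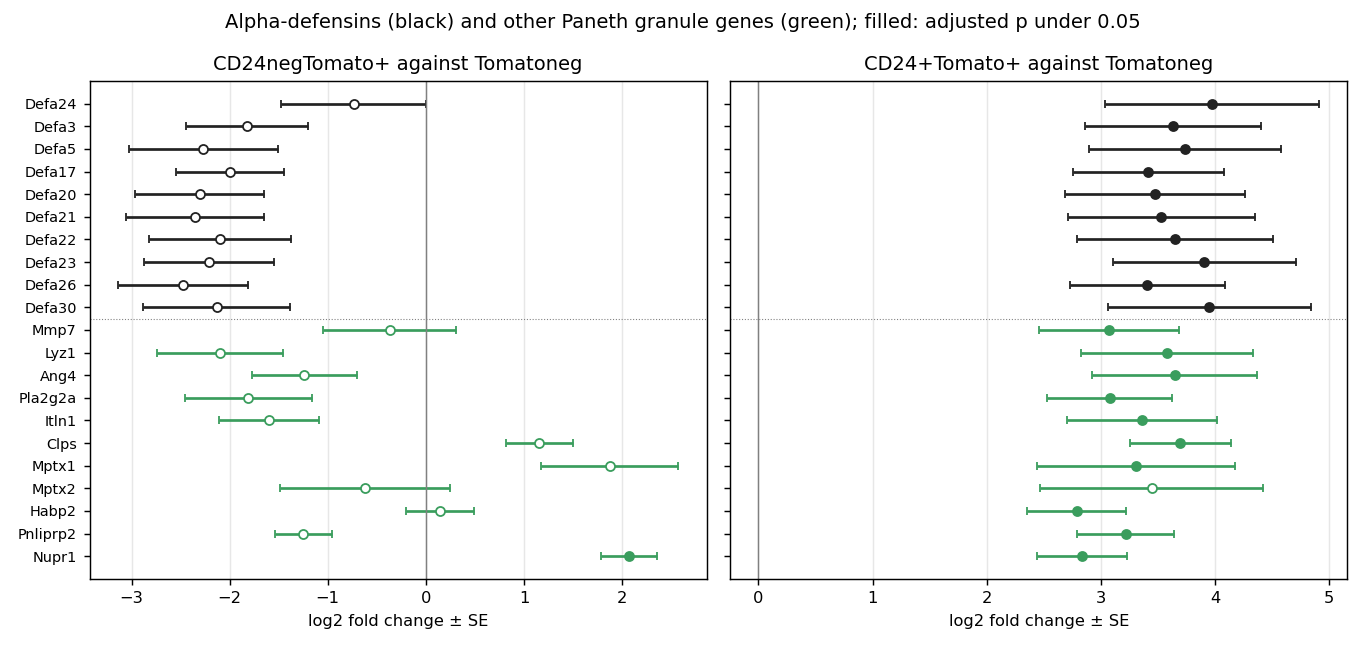
Log2 fold change from Tomatoneg with its SE (horizontal axis) for the 10 alpha-defensins (black) and the 11 tested genes of the granule and processing list (green), in CD24negTomato+ (left) and CD24+Tomato+ (right), from limma without a block. That list includes Nupr1, a stress-response gene. Filled points have an adjusted P under 0.05: all but Mptx2 on the right, and Nupr1 alone on the left.

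Regulators of Paneth cell fate were read from the same fits. Of 12 listed factors and receptors, 2 rose in CD24negTomato+ cells, Atoh1, the factor that commits progenitors to secretory fates (2.18, adjusted P = 0.0164), and Spdef, a factor of goblet and Paneth maturation (1.79, adjusted P = 0.0233), where 0.999% of genes tested passed in this direction. With the block 4 rose, against 4.34% of genes. At an unadjusted P under 0.05 in the limma fit, 5 were higher and 1 lower, where 1377 and 915 of the 13420 genes tested were. The lower one was Sox9, at 76.5, 207 and 243 against 371, 450 and 300 (-1.23, adjusted P = 0.266, and 0.134 with the block). Its groups did not overlap, against 10.6% of genes in this direction. In CD24+Tomato+ Sox9 was higher (1.76, adjusted P = 0.00806). In CD24+Tomato+ cells 6 of the 12 rose, against 8.02% of genes, with Spdef (2.58), Atoh1 (2.34), the Notch ligand gene Dll4 (2.22) and Gfi1 (1.97) the largest. With the block 7 rose, against 10.8% of genes, adding the receptor gene Ephb3 (2.47, adjusted P = 0.0649, and 0.0161 with the block). The Wnt receptor gene Fzd5 alone fell with the block (-1.13, adjusted P = 0.0515, and 0.00456 with the block), where 9.95% of genes passed in the lower direction. Of 8 other antimicrobial genes of the gut epithelium, 6 and 7 were tested and 0 passed in either comparison with limma. With the block 1 was higher (Retnlb) and 3 lower (Reg3b, Reg3g and Pigr) in CD24+Tomato+, and 0 passed in CD24negTomato+. At an unadjusted P under 0.05 in the limma fit without the block, 1 was higher and 1 lower in CD24+Tomato+ and 0 in CD24negTomato+. Of all 13874 genes tested in CD24+Tomato+, 2265 were higher and 1598 lower at that threshold.

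Among 13212 other genes, those whose log2 values followed the summed alpha-defensin level most closely were Lyz1 (Pearson r = 0.992 in the CD24negTomato+ table and 0.997 in the CD24+Tomato+ table), Itln1 (0.986 and 0.992), Pla2g2a (0.973 and 0.996), Gtf3c5 (0.967 and 0.991) and Srm (0.958 and 0.964). Each r is over 6 libraries from 2 populations, shares the Tomatoneg libraries with the other table, and is a description. The first 3 encode Paneth cell granule proteins, Gtf3c5 encodes a subunit of a general factor for RNA polymerase III, and Srm encodes spermidine synthase. Among the 10 genes, r between pairs was 0.983 to 0.999 in the CD24+Tomato+ table and 0.756 or more in the CD24negTomato+ table, where the highest r of Defa24 with any other member was 0.876.

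Markers of Paneth and other cell types also differed between the populations, not always in the direction of the alpha-defensins. In CD24negTomato+ the summed level of 7 Paneth markers (Lyz1, Mmp7, Ang4, Itln1, Pla2g2a, Mptx2 and Habp2, all in the granule list) was 10791 to 27910 against 25195 to 97014 in Tomatoneg, with 6 of 7 lower on average. Of the rest of that list, Mptx1, Clps and Nupr1 were higher, Pnliprp2 was lower and Ang5 was not tested. The summed level of 6 goblet markers was 2051635 to 2752412 against 126275 to 189886, and that of 6 enteroendocrine markers 75849 to 140350 against 2438 to 6201, all higher. Stem cell markers (1334 to 3413 against 8410 to 26266) and lymphocyte markers (252 to 570 against 1861 to 8188) were lower, 4 of 4 each, as were tuft markers (332 to 372 against 1044 to 1685), 5 of 5, of which Il25 was listed at 0 in all CD24negTomato+ libraries. Enterocyte markers overlapped (167165 to 426633 against 124007 to 501892), with 2 of 5 higher on average and 3 lower. In CD24+Tomato+ the Paneth markers summed to 305959 to 1099284 against 27186 to 101962, with 7 of 7 higher, and goblet (869844 to 1135892), enteroendocrine (126221 to 205000) and tuft markers (11105 to 13456) were also above Tomatoneg (140585 to 202488, 2562 to 6347 and 1207 to 1840). Enterocyte markers there were lower (18332 to 79698 against 126369 to 539516), 5 of 5, as were epithelial markers (147356 to 169770 against 179213 to 241912) and lymphocyte markers (306 to 592 against 1998 to 8623), 4 of 4 each. The part of cell type makeup in the alpha-defensin differences was not tested.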

How the data were processed

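Sorted epithelial cells of NFKO mice were profiled by poly-A RNA-Seq, 3 populations with 3 replicates each. What the authors deposited is a signal, namely kallisto 0.44.0 gene counts (GRCm38) normalized with DESeq2 within each of 2 tables of 6 libraries, so tests were run within a table. The Tomatoneg libraries differ between the tables by a ratio that varies from gene to gene (median 1.08, 1.02 and 1.05 in replicates 1, 2 and 3), so the scaling was not a single factor per library. Normalized totals were 22594850 to 30332463 per library. Whole reads could not be recovered (22.5% to 46.0% of low values lay within 0.01 of a multiple of the most common low value), so the sequencing depth is known only roughly and no count test was run. Replicates are labelled as biological, but whether they are separate mice is not stated, and P values measure the spread between these samples.

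After log2 transformation of the normalized count plus 1, genes averaging 10 or more across a table's 6 libraries were fitted with limma (version 3.58.1, R 4.3.3, eBayes with a trend). Tests were two-sided, with Benjamini-Hochberg adjustment over all genes tested and a threshold of 0.05. Fold changes are on that scale. The script was tested on simulated data. Sequences, 31-base words and identities came from GENCODE M21 and RefSeq with Python 3.11.15, and symbols of all 10 genes matched. No library was left out, and 0 pairs of libraries were identical. The replicate numbers in the labels were checked as pairs: deviations from the group means of same-numbered libraries correlated at 0.30, 0.29 and 0.34 in the CD24negTomato+ table and at 0.28, 0.18 and 0.38 in the CD24+Tomato+ table, above 0.1 in each pair, so blocked fits are given where they change a call. The members and gene lists were chosen with earlier results of these data known. The genes named were the 10 members, the 3 other family symbols of highest mean, at most 4 genes past the threshold from each list with Mmp7 and Lyz1 in any case, Foxo1, Cd24a and the 5 genes most alike in pattern. Other genes named are short lists of calls, chosen after their values were seen. Alternatives changed the pseudocount, the filter, the scaling, the block and the libraries kept.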

Additional observations from a re-analysis of the deposited data

Results flagged for a closer look

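For 9 of the 10 alpha-defensins, every same-numbered pair was lower in CD24negTomato+ than in Tomatoneg and higher in CD24+Tomato+ than in Tomatoneg. Of all genes tested, 23.6% were lower in all 3 pairs in CD24negTomato+, and 34.3% were higher in all 3 in CD24+Tomato+. The share of genes with both was not counted. The difference between the 2 labelled populations was not tested, since they were normalized in separate tables and share the Tomatoneg libraries. The log2 fold changes in CD24negTomato+ and CD24+Tomato+ were -1.82 and 3.63 for Defa3, -2.27 and 3.73 for Defa5, -2.00 and 3.42 for Defa17, and -2.31 and 3.47 for Defa20. They were -2.36 and 3.53 for Defa21, -2.10 and 3.64 for Defa22, -2.21 and 3.91 for Defa23, -2.48 and 3.40 for Defa26, and -2.13 and 3.95 for Defa30. Defa24 was the exception, with 1 of 3 pairs higher in CD24negTomato+.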

How the results depend on the processing

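No log2 fold change of the 10 genes and no summed level turned direction under any alternative run. In CD24negTomato+ 0 of 10 passed with limma and 9 with the replicate block. Leaving out 1 library at a time gave 0 to 9, the 9 being without Tomatoneg replicate 1, and leaving out replicate 1 of both groups, an alternative chosen after seeing the data, also gave 9. Other pseudocounts, filters and scalings gave 0. Over all genes, 442 were lower without Tomatoneg replicate 1 and 38 without replicate 1 of both groups, against 43 with all libraries. In CD24+Tomato+ 10 of 10 passed, and leaving out 1 library gave 0 to 10: 0 without CD24+Tomato+ replicate 2 or 3, 4 without Tomatoneg replicate 2, 7 without Tomatoneg replicate 3 and 8 without Tomatoneg replicate 1. The other alternatives, the block included, gave 10, so the block changed no call there. Over all genes, 127 were higher without CD24+Tomato+ replicate 2 and 231 without replicate 3, against 1113 with all libraries. Without Tomatoneg replicates 2, 3 and 1 in turn, 1076, 966 and 1620 were higher. Where 1 library was left out, its group kept 2. The log2 difference of the summed level ranged from -2.39 to -1.20 in CD24negTomato+ and from 3.08 to 4.52 in CD24+Tomato+ over the libraries left out, and all 45 family symbols gave -1.88 and 3.73. The median over all genes was 0.08 in CD24negTomato+ and -0.12 with equal library totals, and 0.16 in CD24+Tomato+ and -0.02 with quantile normalization. The cause of these changes was not tested. How reads were divided among paralogs was not varied.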
